A study of Mus musculus with 4 samples.

Results

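The cells described here are mural cells, the pericytes and smooth muscle cells that wrap blood vessels, captured with dissociated mouse pancreatic islets. The samples were 4 single-cell RNA-seq libraries on the 10x Genomics Chromium platform, each from 300 islets pooled from 2 to 3 female C57BL/6J mice. CCR2-DTR+/- mice carry a diphtheria toxin receptor transgene for removal of cells that express CCR2, the chemokine receptor of monocytes and monocyte-derived macrophages. They and wild type (WT) littermates, which lack the transgene, were all given diphtheria toxin in 4 injections at intervals of 48 hours from postnatal day 2. All were weaned at 21 days to chow, and islets were taken at 1 month or at 6 months of age. The 4 groups were thus toxin-treated WT and toxin-treated CCR2-DTR+/- mice at each age, and the WT groups control for the transgene and not for the toxin. The title of the study poses the question, which is how early loss of CCR2+ myeloid cells bears on islet cell populations later in life.

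Each group was 1 library, so no difference between groups could be tested, and animals within a pool cannot be told apart. Intervals in the text are 95% intervals of counting error only, exact unless named otherwise, and a difference past them is a difference between 2 libraries. Expression is given as CPM, the UMIs (unique molecular identifiers, 1 for each captured RNA molecule) of a gene per 1000000 UMIs of all mural cells of a library together. Where 4 values are given, the first pair is from age 1 month and the second from age 6 months, each with WT before CCR2-DTR.

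Members were selected on measured values. A cell was kept if it had 1000 UMIs and 500 genes or more, with mitochondrial genes giving 15% of UMIs at most. A mural cell also had under 20% of its UMIs from the 5 hormone genes Ins1, Ins2, Gcg, Sst and Ppy, and UMIs of at least 3 of the 8 markers Rgs5, Higd1b, Cox4i2, Notch3, Ndufa4l2, Acta2, Tagln and Myh11. It had UMIs of fewer than 3 of the 4 fibroblast genes Dcn, Lum, Pdgfra and Col1a1, and of fewer than 4 of the 6 endothelial genes Pecam1, Plvap, Flt1, Kdr, Emcn and Egfl7. Of 35079 barcodes, 26121 were kept and 598 of these, 2.29%, were mural cells: 203, 273, 53 and 69 in the 4 libraries. The same genes defined 1936 endothelial cells and 73 fibroblasts for comparison, the latter 13, 41, 0 and 19, so that WT at 6 months has no fibroblast value.

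Pericytes lie within the basement membrane of capillaries, and smooth muscle cells form rings around arterioles. Both contract and relax by actin and myosin sliding, set off by calcium entry and by receptors for hormones and transmitters, and thereby set blood flow. Endothelial PDGF-B recruits them through the receptor Pdgfrb, and Notch3 signalling maintains their identity. In islets, pericytes line the dense capillary network, regulate its flow, lay down part of the matrix on which beta cells rest, and release growth factors.

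Mural cells had fewer UMIs than kept cells as a whole. Their median was 2466, 3139, 4713 and 4194 UMIs per cell, against 11536, 9036.5, 13126.5 and 15037 over all kept cells and 3140.5, 3959, 5802 and 5674.5 over endothelial cells. The summed depth behind the CPM values was 674368, 984148, 305821 and 335013 UMIs. Libraries shared 6 to 34 barcodes in pairs, and none of these barcodes was a mural cell in both. Hormone genes gave 6.33%, 8.68%, 5.60% and 7.33% of mural UMIs and 4.18% to 6.55% of endothelial UMIs. An acinar gene had a UMI in 12.3%, 77.3%, 37.7% and 94.2% of mural cells and in 10.5%, 77.2%, 47.6% and 94.2% of endothelial cells of the 4 libraries, highest in both CCR2-DTR libraries in either type. In all kept cells other than mural cells, endothelial cells and fibroblasts included, the acinar genes summed to 502, 267, 631 and 382 CPM, higher in WT. The source of these UMIs was not tested. Macrophage genes summed to 931, 182, 13.1 and 940 CPM, of which the 4 mural cells with the most held 604 of 628, 158 of 179, 4 of 4 and 313 of 315 UMIs. Of 10 lymphocyte genes, 7 were at 0 in all 4 libraries, and Schwann cell genes summed to 22.2 to 98.5 CPM.

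The label was checked against marker genes that the rule did not use. Pdgfrb, the PDGF-B receptor, measured 853, 739.7, 863 and 851 CPM, against 0 to 0.452 CPM in endothelial cells. Cspg4, the pericyte proteoglycan NG2, measured 424, 415, 608 and 466 CPM, against 1.53 to 7.56 CPM in endothelial cells. Abcc9, the regulatory subunit of the vascular ATP-sensitive potassium channel, measured 236, 249.96, 298 and 394 CPM. All 3 were thus well above the endothelial background in each library. The pore subunit of that channel, Kcnj8, measured 94.9, 105, 81.7 and 218 CPM and the matrix adhesion protein Vtn 267, 294, 324 and 427 CPM. With fibroblasts compared too, the margins were smaller. The smallest ratio over either class in any library was 2.37 for Pdgfrb, 3.00 for Cspg4 and 4.97 for Abcc9. For Vtn it was 0.81, so Vtn was not above both classes in every library. Of the smooth muscle genes set aside for the same check, Myl9, Tpm2, Lmod1 and Des were well measured, at 1194 to 1652 CPM, 539.8 to 961 CPM, 218 to 262 CPM and 399 to 463 CPM. Cnn1, calponin of mature smooth muscle, had 12, 30, 0 and 0 UMIs, from 5 and 4 cells of the 1-month libraries. Pln, which restrains calcium uptake into stores, had UMIs in 3 to 7 cells of a library. The 6 endothelial genes of the rule together gave 32.6 to 58.9 CPM in mural cells against 13769 to 18526 CPM in endothelial cells, and 16 other endothelial genes 464 to 585 CPM against 13141 to 16143 CPM.

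Most members were far inside the marker threshold. Of the 598, 371 (62.0%) had UMIs of 7 or 8 markers, and 11 had exactly 3. Those 11 held 476 CPM of Pdgfrb over all libraries, while the 20 barcodes just outside with 2 markers held 35.7 CPM and had a median of 10210.5 UMIs, against 1759 UMIs in the 11.

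A set of genes set mural cells apart from both other stromal classes, which is a description because the classes were made from the same cells. Of 1314 genes at 100 CPM or more in mural cells of all 4 libraries, 111 (8.45%) were past 2-fold over endothelial cells and over fibroblasts in every library that had them. Among the genes outside the rule with the largest margins, Rgs4, a brake on G protein signalling, measured 574, 419.7, 661 and 528 CPM against 1.36 to 12.6 CPM in endothelial cells and 5.78 to 31.4 CPM in fibroblasts. The olfactory-type receptor Olfr558 measured 429, 393, 576 and 448 CPM, against 0 to 0.765 CPM in endothelial cells. Atp1b2, a sodium pump subunit, measured 448, 413, 422 and 484 CPM, and the lipid phosphatase Inpp4b 458, 449, 625 and 409 CPM.

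The receiving side of nitric oxide signalling was part of this set. Gucy1a1 and Gucy1b1, the 2 subunits of the soluble guanylate cyclase that nitric oxide activates, measured 835, 733, 929 and 818 CPM and 546, 546, 687 and 725 CPM. Pde5a, which degrades the cyclic GMP so formed, measured 457, 413, 517 and 367 CPM. In endothelial cells these 3 genes ranged over 0.904 to 2.36 CPM, 9.04 to 23.2 CPM and 9.95 to 29.3 CPM. Over the whole list of vasoactive receptors and channels, 8 of the 11 genes at 100 CPM were past 2-fold over both classes (Gucy1b1, Pde5a, Gucy1a1, Abcc9, Ano1, Pde3a, Prkg1 and S1pr3). The pericyte list gave 13 of 18 and the contractile list 12 of 20, the latter led by Myl9, Mustn1, Rasl12 and Tpm2. Those shares stand beside 8.45% over all genes. Transcription factors gave 4 of 14 (Tbx2, Tbx3, Zfhx3 and Foxs1) and matrix genes 1 of 18, the small proteoglycan Aspn.

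Aspn measured 1188, 1139, 1305 and 1463 CPM, had no UMI in endothelial cells of any library, and measured 162 to 392 CPM in fibroblasts. Mgp, an inhibitor of calcification, was abundant in mural cells at 6619.5, 9013, 10016 and 10907 CPM and in fibroblasts at 6917 to 26059.9 CPM, against 3.78 to 11.0 CPM in endothelial cells. The PDGF pair was split between the cells of the vessel. Pdgfb, the endothelial ligand, measured 2.98 to 17.8 CPM in mural and 240.4 to 297 CPM in endothelial cells, while mural cells held its receptor. Pdgfa, another ligand of the family, was on the mural side at 574, 570.0, 507 and 469 CPM. Il34, a ligand of the macrophage receptor Csf1r, measured 159, 204, 144 and 125 CPM in mural cells and at most 0.904 CPM in endothelial cells. Over fibroblasts its smallest ratio in any library was 1.12, so it did not set mural cells apart from them. Csf1, the other ligand, measured 5.08 to 16.3 CPM in mural cells.

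**Figure D1:**
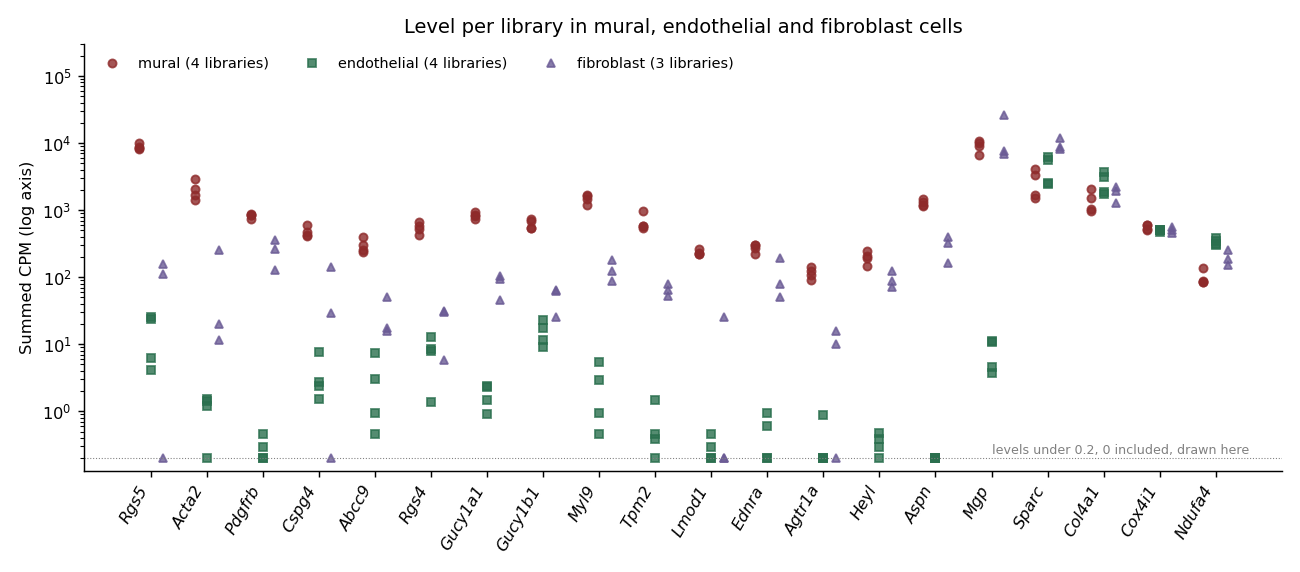
Level of 20 genes in mural cells (circles), endothelial cells (squares) and fibroblasts (triangles), 1 point per library, as summed CPM on a log axis. Values under 0.2 CPM, 0 included, are drawn at the dotted line. Mural points of Pdgfrb lie between 740 and 863 CPM and endothelial points at 0.45 CPM or less, while Sparc and Col4a1 are as high or higher in endothelial cells.

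Members of the rule itself include 2 subunit variants of the respiratory chain, Cox4i2 at 621, 585, 683 and 701 CPM and Ndufa4l2 at 1556, 1557, 1458 and 1633 CPM, which are known in vessel wall cells and linked to oxygen sensing. Their common counterparts behaved differently from one another. Cox4i1, the usual form of the complex IV subunit, measured 595, 596, 519.9 and 498 CPM in mural and 501, 509, 477 and 497 CPM in endothelial cells. Ndufa4 measured 136, 85.4, 85.0 and 86.6 CPM in mural and 383, 299.95, 309 and 341 CPM in endothelial cells, lower in mural cells in all 4 libraries. Of the other rule markers, Rgs5, which shortens signals of contractile receptors, measured 8215, 10019.8, 8413 and 8624 CPM, Notch3 741, 820.0, 853 and 788 CPM and Higd1b, a hypoxia-inducible domain protein, 645, 559.9, 582 and 648 CPM.

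The Notch pathway list, which leaves out the receptor in the rule, summed to 994, 925, 1171 and 1116 CPM in mural and 1382, 1249.8, 1483 and 1393 CPM in endothelial cells, and 0 of its 4 genes at 100 CPM were past 2-fold over both other classes. Heyl, a transcriptional target of Notch3, measured 145, 209, 242 and 191 CPM, and Notch1 145, 124, 170.0 and 173 CPM. The ligand Jag1 measured 116, 126, 167 and 155 CPM. Among transcription factors of the lineage, Ebf1 measured 684 to 782 CPM, Nr2f2 809.6 to 970.1 CPM, Tbx2 335 to 409 CPM and Prrx1 229.8 to 270.3 CPM over the 4 libraries. Of the 23 factors past the level floor defined below, 3 had intervals higher and 6 lower in CCR2-DTR at 1 month, against 6.98% and 10.3% of all genes.

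Contractile and pericyte genes were not spread evenly over the cells. Of the 598 cells, 320 had UMIs of all 3 contractile markers of the rule (Acta2, smooth muscle actin, Tagln, an actin-binding protein, and Myh11, smooth muscle myosin), 236 had 1 or 2, and 42 had none. The split used measured values and is related to depth, since the median was 2849, 3421.5, 5156 and 4434 UMIs in cells with all 3 and 1803, 2227, 3236 and 2648 UMIs in cells with none. It is therefore given as a description.

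Contractile genes outside the rule went with the split. Of 34 with at least 20 UMIs in both sets of cells together, 25 were higher in the cells with all 3 markers in each of the 4 libraries, and 0 were lower in each. Over all genes outside the rule markers with that many UMIs, 12.2% were higher and 4.38% lower in each. Tpm2, a tropomyosin, measured 666 to 1099 CPM in the former and 77.9 to 357 CPM in the latter. Lmod1, which nucleates actin in smooth muscle, measured 277 to 301 CPM in the former and 39.0 to 114 CPM in the latter. Mustn1 ranged over 448 to 566 against 0 to 85.6 CPM and the actin crosslinker Flna over 442 to 566 against 39.0 to 143 CPM. For all 4 of these the ranges did not overlap, but the cells with none numbered only 15, 17, 4 and 6. The share of all genes whose ranges did not overlap was not counted. Myocd, the coactivator that drives smooth muscle genes with SRF, measured 49.0 to 54.3 CPM in the former and had no UMI in the latter. Of the pericyte list, 3 genes of 24 were higher and 4 lower with all 3 markers in each library. The potassium channel subunits were among the lower ones, with Kcnj8 at 26.2 to 114 against 156 to 399.6 CPM and Abcc9 at 140.3 to 233 against 389.6 to 857 CPM, though on 33 and 66 UMIs in the 42 cells with none. The receptor Pdgfrb and Rgs5 did not separate the sets, at 693 to 803 against 429 to 1429 CPM and 8003 to 10991 against 6312 to 9000.0 CPM. Fgf1, a fibroblast growth factor, measured 76.0 to 105 CPM in the former and 0 to 39.0 CPM in the latter.

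**Figure D2:**
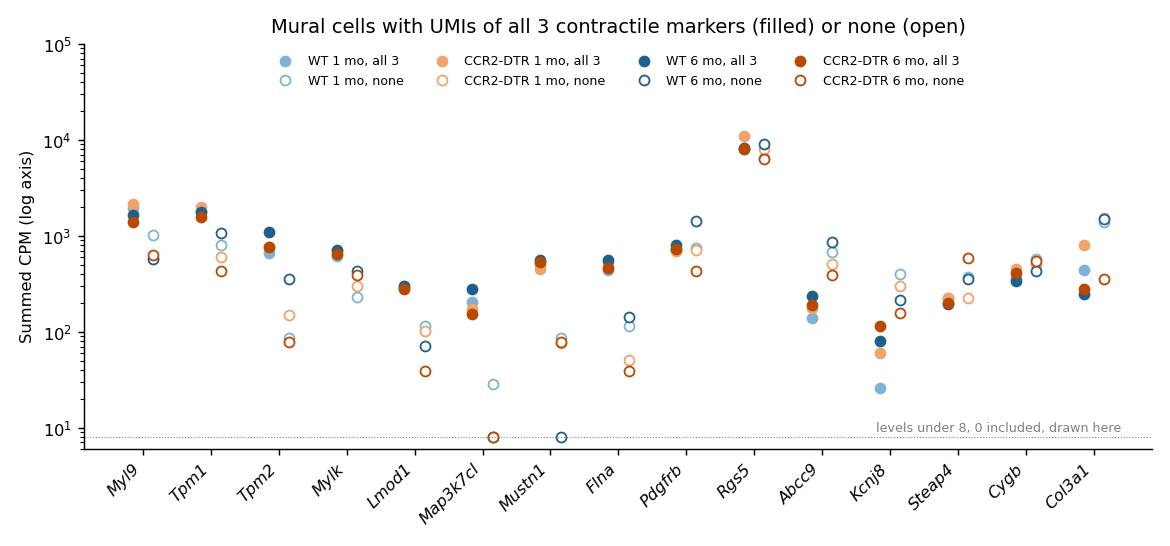
Level of 15 genes in mural cells with UMIs of all 3 of Acta2, Tagln and Myh11 (filled) and of none of them (open), 1 point per library, as summed CPM on a log axis with levels under 8 CPM drawn at the dotted line. Filled points lie above open ones for Tpm2, Lmod1, Map3k7cl, Mustn1 and Flna, and below them for Kcnj8 and Abcc9.

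Promoters of 3 genes from either side of this split are shown, with RefSeq sequence of GRCm38.p6, 5' to 3' on the gene's strand, over the 250 bases before the start. Acta2 (chr19:34255374-34255623, minus strand) and Myl9 (chr2:156775214-156775463, plus strand) stand for contractile genes, and Kcnj8 (chr6:142571615-142571864, minus strand) for pericyte genes. Capitals mark a CArG box, the motif of the factor SRF, searched on both strands as CC and GG around 6 bases of which at most 1 is C or G.
Acta2: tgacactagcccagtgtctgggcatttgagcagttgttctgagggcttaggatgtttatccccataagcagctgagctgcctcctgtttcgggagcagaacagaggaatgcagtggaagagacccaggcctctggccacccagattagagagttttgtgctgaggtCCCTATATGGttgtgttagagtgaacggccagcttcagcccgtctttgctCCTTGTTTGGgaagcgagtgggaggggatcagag
Myl9: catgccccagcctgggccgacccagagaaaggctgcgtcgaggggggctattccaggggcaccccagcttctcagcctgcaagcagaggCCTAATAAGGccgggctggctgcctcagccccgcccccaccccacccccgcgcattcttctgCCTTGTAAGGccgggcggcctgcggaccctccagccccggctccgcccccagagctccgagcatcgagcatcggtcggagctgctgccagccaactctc
Kcnj8: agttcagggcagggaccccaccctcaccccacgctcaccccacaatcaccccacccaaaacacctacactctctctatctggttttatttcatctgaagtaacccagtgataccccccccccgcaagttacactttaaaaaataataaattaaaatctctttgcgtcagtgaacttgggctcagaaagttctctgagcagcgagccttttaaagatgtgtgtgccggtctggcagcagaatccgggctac
Acta2 holds a box 84 and another 34 bases before the start, Myl9 161 and 99 bases before it, and the Kcnj8 window holds none.

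Over all entries of the same length, 2823 of 32851 (8.59%) hold a box. Of the contractile list, 5 of 29 genes with an entry did (17.2%; Cnn2, Myl6, Myl9, Pcp4l1 and Susd5), of the pericyte list 1 of 18 (5.56%; Tbx18) and of the matrix list 5 of 36 (13.9%). The list shares count a gene if any of its entries held a box, while the 8.59% counts single entries. The units therefore differ, and a gene with several entries had more chances. A match is letters in a window, and its use in these cells was not measured.

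Mural cells made up 2.23% (1.94 to 2.56) of kept cells in WT and 3.06% (2.72 to 3.44) in CCR2-DTR at 1 month, and 1.42% (1.07 to 1.86) and 1.57% (1.22 to 1.98) at 6 months. Both 6-month libraries were below both 1-month libraries. The ratio of CCR2-DTR to WT was 1.37 (1.14 to 1.65) at 1 month and 1.10 (0.760 to 1.61) at 6 months, so an equal share lay within counting error at 6 months. The 1-month excess depended on which cells entered: it was 1.01 with a hormone limit of 10%. The ratio of 6 months to 1 month was 0.639 (0.463 to 0.868) in WT and 0.513 (0.388 to 0.670) in CCR2-DTR. The WT ratio was 0.980 when kept cells needed 2000 UMIs. With the cells under the hormone limit as denominator the age ratios were 0.336 and 0.382. How well each cell type survived dissociation was not measured.

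Against endothelial cells of the same library, which the share of endocrine cells does not touch, there were 32.3 (27.5 to 37.9), 41.8 (36.2 to 48.2), 16.9 (12.4 to 22.7) and 20.2 (15.3 to 26.2) mural cells per 100 endothelial cells. The age ratio was 0.524 (0.369 to 0.736) in WT and 0.483 (0.354 to 0.653) in CCR2-DTR. The genotype ratio was 1.29 (1.04 to 1.61) at 1 month and 1.19 (0.793 to 1.80) at 6 months. Endothelial cells themselves were 6.90%, 7.33%, 8.41% and 7.79% of kept cells. Both 6-month libraries thus held fewer mural cells per endothelial cell than the 1-month library of the same genotype.

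The share of mural cells with all 3 contractile markers was 52.2% (45.1 to 59.3) in WT and 52.0% (45.9 to 58.1) in CCR2-DTR at the age of 1 month, and 73.6% (59.7 to 84.7) and 47.8% (35.6 to 60.2) at 6 months. WT at 6 months stood above the other 3 libraries. With every cell thinned to 1000 UMIs the shares were 28.6%, 21.98%, 37.7% and 21.7%, in which WT at 6 months was again the highest. The ratio of CCR2-DTR to WT at 6 months was 0.650 (0.484 to 0.873, by the log method for 2 binomial shares), and 0.576 (0.327 to 1.01) with thinned cells, an interval that includes 1. At 1 month it was 0.996 (0.837 to 1.19), but 0.769 with thinned cells and 1.23 with a hormone limit of 10%.

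**Figure D3:**
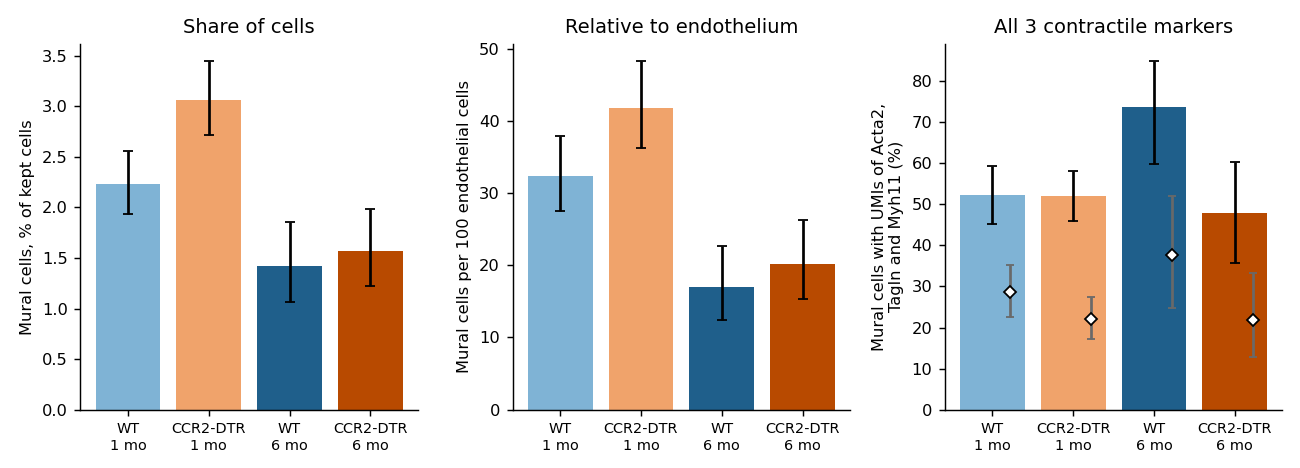
Mural cells as a percentage of kept cells, per 100 endothelial cells, and the percentage of mural cells with UMIs of Acta2, Tagln and Myh11, by library, with exact 95% intervals of counting error. Diamonds give the last share with cells thinned to 1000 UMIs. The 6-month bars are the lower ones in the first 2 panels, and WT at 6 months is highest in the last at 73.6%.

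Between genotypes, fewer genes were past 2-fold at 1 month than at 6 months, an order that depended on the level floor. A gene counted as past 2-fold if its interval also excluded 1, among genes with 50 CPM in 1 library and 20 UMIs over both. At 1 month 42 of 3813 genes (1.1%) were higher in CCR2-DTR and 40 (1.05%) lower, and at 6 months 127 of 4130 (3.08%) were higher and 121 (2.93%) lower. The 6-month libraries held fewer mural cells, which widens counting error. Without the CPM floor and with 10 UMIs needed, the order was reversed, with 458 genes past 2-fold at 1 month and 413 at 6 months. The only genes past 2-fold higher at both ages were 3 of 3515 (0.0853%), the digestive enzymes Prss2, Ctrb1 and the trypsin-like 2210010C04Rik, and 0 were lower at both (0%). These 3 were singled out after their values were seen, and the shares of cells with an acinar UMI are given above. By any size, with both intervals excluding 1, 28 of the 3515 genes (0.797%) were higher at both ages and 19 (0.541%) lower. At a single age, 6.98% of genes were higher at 1 month and 5.79% at 6 months, and 10.3% and 7.05% were lower. Whether more genes were shared than unrelated pairs of libraries would share was not tested. The genes furthest by the smaller of both ratios are described next.

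Higher in CCR2-DTR at both ages was Adra2a, the alpha-2A adrenergic receptor, at 32.6, 63.0, 13.1 and 53.7 CPM, with log2 ratios of 0.95 and 2.04. It rests on 22, 62, 4 and 18 UMIs and was 4.07 to 7.73 CPM in endothelial cells. All kept cells other than mural cells held 40.9, 40.1, 27.0 and 35.1 CPM of Adra2a, above the mural level in both WT libraries. Their log2 ratios were -0.03 and 0.38. Cebpb, a stress-induced transcription factor, measured 163, 219, 150.4 and 251 CPM, and Nfkbia, the inhibitor that NF-kB induces, 165, 235, 196 and 289.5 CPM. Endothelial cells also had more of both in CCR2-DTR at either age. They held 42.5, 78.8, 108 and 130 CPM of Cebpb and 357, 492, 511 and 666 CPM of Nfkbia. The kept cells other than mural cells moved the same way, with log2 ratios of 0.42 and 0.28 for Cebpb and 0.68 and 0.37 for Nfkbia. The basement membrane chain Col4a3 measured 97.9, 140.2, 52.3 and 119 CPM, and Tmem176b, a membrane protein, 337, 454, 255 and 412 CPM. Zbtb16, a glucocorticoid-induced factor, measured 94.9, 156, 26.2 and 95.5 CPM, and endothelial cells followed it at 186, 212, 19.8 and 155 CPM. Phb2, Ecm1, Cope and Ptov1 were also higher, with log2 ratios of 0.41 to 0.53 at 1 month and 0.59 to 0.83 at 6 months.

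Further genes were lower in CCR2-DTR at both ages. Hspb2, a small heat shock protein of muscle, measured 184, 112, 193 and 104 CPM, with log2 ratios of -0.72 and -0.88, and was at most 0.383 CPM in endothelial cells. Nrip2, a nuclear receptor partner, measured 212, 156, 235 and 119 CPM. Wtip, a junction-associated adaptor, measured 418, 297, 689.9 and 361 CPM. Rgs4 measured the values given above, with log2 ratios of -0.45 and -0.32. H2afy, Sema6d, Nktr, Lbh and Fry were also lower, with log2 ratios of -0.49 to -0.34 at 1 month and -0.69 to -0.32 at 6 months.

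Contractile genes outside the rule lay mostly below the median gene in CCR2-DTR at 6 months and on either side of it at 1 month, and the difference between ages was not tested. At 6 months 5 of 25 were above the median gene and the list's median was 0.34 log2 units below it. Of the 25, 2 genes were past 2-fold lower, against 2.93% of all genes. The interval of the ratio lay below 0 for 13 of the 25 and above 0 for 1, against 7.05% and 5.79% of all genes. At 1 month 14 of 26 were above, with a median of 0.02 relative to all genes. Tpm2 measured 539.8, 588, 961 and 579 CPM and Map3k7cl 151, 119, 235 and 98.5 CPM, with 6-month ratios of -0.73 (-1.0004 to -0.46) and -1.26 (-1.90 to -0.64). Pcp4l1 measured 298, 266, 448 and 218 CPM, and Actn1, an actin crosslinker, 269.9, 320.1, 327 and 179 CPM. Cav1, which forms membrane caveolae, measured 299.5, 307, 366 and 188 CPM, while Hspb1 went the other way at 512, 358, 409 and 540.3 CPM. The intermediate filament Des measured 399, 463, 409 and 454 CPM, and at 6 months its ratio was 0.15 (-0.20 to 0.50), an interval that includes no difference. The 3 contractile markers of the rule chose the members, so their levels are given as a description only. Acta2 measured 2039, 1703, 2887 and 1400.0 CPM, Myh11 940.1, 973, 1334 and 776 CPM and Tagln 1876, 1764, 1733 and 1239 CPM, and CCR2-DTR at 6 months was the lowest library for each.

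The same list was also measured within the sets of cells split by contractile markers. Among cells with all 3 (33 in CCR2-DTR and 39 in WT), its relative median at 6 months was -0.07, with 10 of 28 genes above the median gene. Among the other cells (36 and 14) it was 0.06, with 12 of 21 above. Tpm2 had a log2 ratio of -0.51 (-0.82 to -0.22) in cells with all 3 markers. The split was chosen after the data were seen and is made on contractile markers themselves, which by construction takes part of any contractile difference out of the sets, so these values do not show how the list's difference arose.

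Pericyte genes gave no common direction between genotypes, with 14 of 22 above the median gene at 6 months and a relative median of 0.06. Kcnj8, with the levels given above, had a log2 ratio of 1.41 (0.74 to 2.13) at 6 months, and CCR2-DTR at 6 months was the highest of the 4 libraries. In the cells without all 3 contractile markers its 6-month levels were 345 CPM in CCR2-DTR and 94.4 CPM in WT, and in those with all 3 the ratio was 0.53 (-0.43 to 1.49). Its partner Abcc9 had 0.41 (0.01 to 0.81), Vtn 0.40 (0.02 to 0.78) and Cspg4 -0.39 (-0.70 to -0.07). P2ry14, a receptor for UDP-sugars, measured 17.8, 30.5, 35.97 and 80.6 CPM, highest in CCR2-DTR at 6 months.

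**Figure D4:**
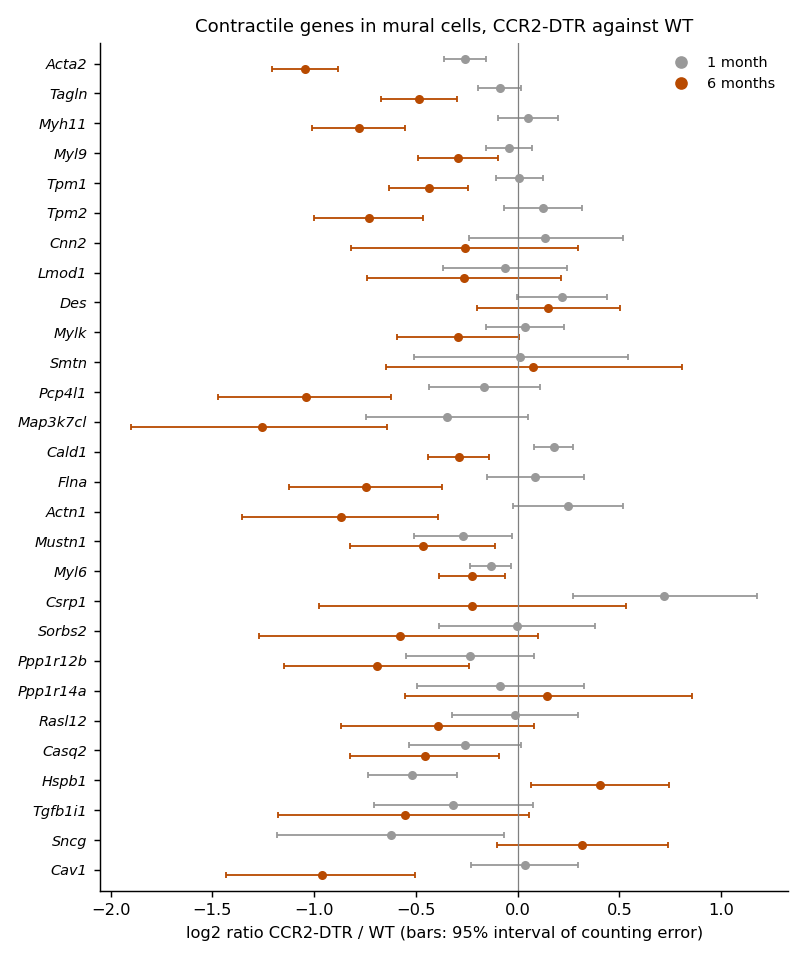
Log2 ratio of CCR2-DTR to WT at 1 month (grey) and 6 months (orange) for the 3 contractile rule markers (the top 3 rows) and 25 contractile genes outside the rule, with 95% intervals of counting error. At 6 months Acta2 lies at -1.04 and Map3k7cl at -1.26, while Hspb1 lies at 0.40 and Des spans 0.

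Matrix genes were higher in CCR2-DTR at 1 month. Of 29, 26 were above the median gene, with a relative median of 0.34 and 16 intervals above 0, against 6.98% of all genes. Among cells with all 3 contractile markers, 28 of 31 were above (0.48), and among the other cells 21 of 29 (0.14). Sparc had a log2 ratio of 0.49 (0.39 to 0.59) in the former and 0.02 (-0.09 to 0.14) in the latter. Col4a1, a chain of the basement membrane collagen, measured 1510 and 2092 CPM in WT and CCR2-DTR, and Bgn, a proteoglycan, 639 and 917 CPM. Col3a1, a fibrillar collagen, measured 654 and 904 CPM. At 6 months 13 of 26 were above and the relative median was 0.00. The 4 fibroblast genes of the rule summed to 47.5, 134, 26.2 and 56.7 CPM in mural cells, highest in CCR2-DTR at 1 month, and 16 other fibroblast genes to 1582, 2063, 1298 and 1331 CPM. The 16 include Col3a1, Col1a2 and Lox, which are also in the matrix list, so this sum is not separate from the matrix result. The part of fibroblast RNA in the result was not tested. In endothelial cells Col4a1 also was higher in CCR2-DTR at 1 month, at 3716 against 3143 CPM.

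Inflammatory and stress genes were compared next, and the difference between ages was not tested. Of 20 immediate early genes, which dissociation is known to induce, 16 were above the median gene in CCR2-DTR at 6 months (relative median 0.59), against 9 of 21 at 1 month (-0.07). Egr1 was the extreme, at 216, 219, 45.8 and 221 CPM, so WT at 6 months was the low library, while endothelial cells held 186, 177, 197 and 202 CPM. The whole immediate early list was higher in CCR2-DTR at 6 months in endothelial cells too. It summed to 9660 CPM there in WT and 11410 CPM in CCR2-DTR, against 5503 and 8029.5 CPM in mural cells. Fos measured 393, 446, 317 and 624 CPM and Ier2 119, 108, 45.8 and 179 CPM. The chemokine and inflammatory list had 7 of 8 and 7 of 11 genes above the median gene at 1 and 6 months. Ccl11, an eosinophil chemokine, measured 26.7, 20.3, 39.2 and 107 CPM. Ccl19 had 60 UMIs from 3 cells of CCR2-DTR at 6 months, and Ccl8 16 UMIs from 1 cell, so these rest on very few cells. MHC class I genes H2-K1 and H2-D1 measured 196, 144, 147 and 367 CPM and 234, 167, 193 and 415 CPM, highest in CCR2-DTR at 6 months. Macrophage genes in the same cells summed to 931, 182, 13.1 and 940 CPM, so they too were far higher in CCR2-DTR than in WT at 6 months, and their part in the values of these lists was not tested. The interferon list's relative median of 0.29 at 6 months was -0.08 with a hormone limit of 10%. That list summed to 3404 CPM in WT and 4599.8 CPM in CCR2-DTR at 6 months in mural cells. Endothelial cells went the same way, at 12212 and 14538 CPM. The receptor targeted by the study, Ccr2, had 2, 4, 0 and 3 UMIs in mural cells and could not be assessed.

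Other genes named for a single age had few UMIs. At 1 month Nr4a1, Emp1, Ccn1, Sdf2l1 and Fkbp5 were higher in CCR2-DTR, with log2 ratios of 1.18 to 1.80, and Unc93b1, Gstz1, Ndufaf8, Peg13 and Las1l lower, at -1.64 to -1.19. Ccn1, a matricellular protein, measured 34.1, 87.4, 71.9 and 68.7 CPM, and Sdf2l1, an endoplasmic reticulum chaperone partner, 51.9, 130.1, 22.9 and 56.7 CPM. At 6 months Col15a1, Impa1 and Mnat1 were higher beside Egr1 and Adra2a, and Col19a1, Akr7a5, Osgep, Prpf8 and Frmd4b lower. Col19a1, a minor collagen, measured 43.0, 7.11, 78.5 and 11.9 CPM on 29, 7, 24 and 4 UMIs, low in both CCR2-DTR libraries and without a UMI in endothelial cells.

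With age, most genes of the matrix list lay below the median gene in both genotypes. From 1 to 6 months 143 of 4079 genes (3.51%) were past 2-fold higher in WT and 120 (2.94%) lower, and in CCR2-DTR 138 of 3962 (3.48%) were higher and 74 (1.87%) lower. With TMM scaling, which matches libraries by their middle genes, the splits became 104 higher and 153 lower in WT and 81 and 116 in CCR2-DTR. Of 3608 genes, 12 (0.333%) were past 2-fold higher and 9 (0.249%) lower in both genotypes, which share no library. Of the 9 lower genes, Eln and Col18a1 belong to the matrix, and H2-Aa, H2-Eb1 and Cd74 to antigen-presenting cells. Macrophage genes in the mural cells were lower with age in WT (931 to 13.1 CPM) but higher in CCR2-DTR (182 to 940 CPM). The part of antigen-presenting cells was not tested. The others were Nrep, Ppic, Mrps6 and the hormone gene Ppy.

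Of the matrix list, 8 of 27 genes in WT and 4 of 30 in CCR2-DTR were above the median gene, with relative medians of -0.24 and -0.58. Intervals lay below 0 for 10 genes in WT and 15 in CCR2-DTR, and above 0 for 3 in each, against 7.13% and 7.45% of all genes below and 10.3% and 11.1% above. Of the fibroblast genes given above, 3 outside the rule passed the floor, with relative medians of -0.57 in WT and -1.30 in CCR2-DTR. These 3 include Col3a1 and Col1a2, which are also in the matrix list, so their values are not separate from the matrix result. Of the fibroblast genes of the rule, 1 passed the floor in CCR2-DTR, at -2.04. The part of fibroblast RNA in the result was not tested. Sparc, a collagen-binding protein, measured 3347, 4115, 1707 and 1534 CPM, with log2 ratios of -0.97 (-1.11 to -0.83) in WT and -1.42 (-1.56 to -1.29) in CCR2-DTR. Col4a1 measured 1509.6, 2092, 1030.0 and 955 CPM and Col4a2 1112, 1363, 716 and 576 CPM. Both 6-month libraries lay below both 1-month libraries for all 3. Endothelial cells moved the same way, with Sparc at 5567, 6180.1, 2563 and 2472 CPM and Col4a1 at 3143, 3716, 1877 and 1769 CPM. Col3a1 measured 654, 904, 353 and 376 CPM and Col1a2 467, 635, 327 and 266 CPM, which endothelial cells scarcely express (0.452 to 3.06 CPM and 1.36 to 3.44 CPM). Col6a2 measured 154, 201, 85.0 and 110.4 CPM. Eln, elastin of the arterial wall, measured 182, 311, 29.4 and 17.9 CPM, from 18, 41, 6 and 5 cells, the highest of which held 32, 104, 2 and 2 of 123, 306, 9 and 6 UMIs. Without the highest cell of each library its ratios were -2.50 and -4.09.

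Other matrix genes were higher at 6 months. Mgp had ratios of 0.60 and 0.28 log2 units, with the levels given above. Adamts1, a matrix protease, measured 53.4, 66.0, 160.2 and 140.3 CPM, with ratios of 1.59 and 1.09, and was 162, 220.0, 284 and 312 CPM in endothelial cells. Aspn had 0.14 (-0.04 to 0.31) and 0.36 (0.20 to 0.52). The list's relative median within the sets of cells was, in CCR2-DTR, -0.61 with all 3 contractile markers and -0.69 without, and in WT -0.19 and -0.06.

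**Figure D5:**
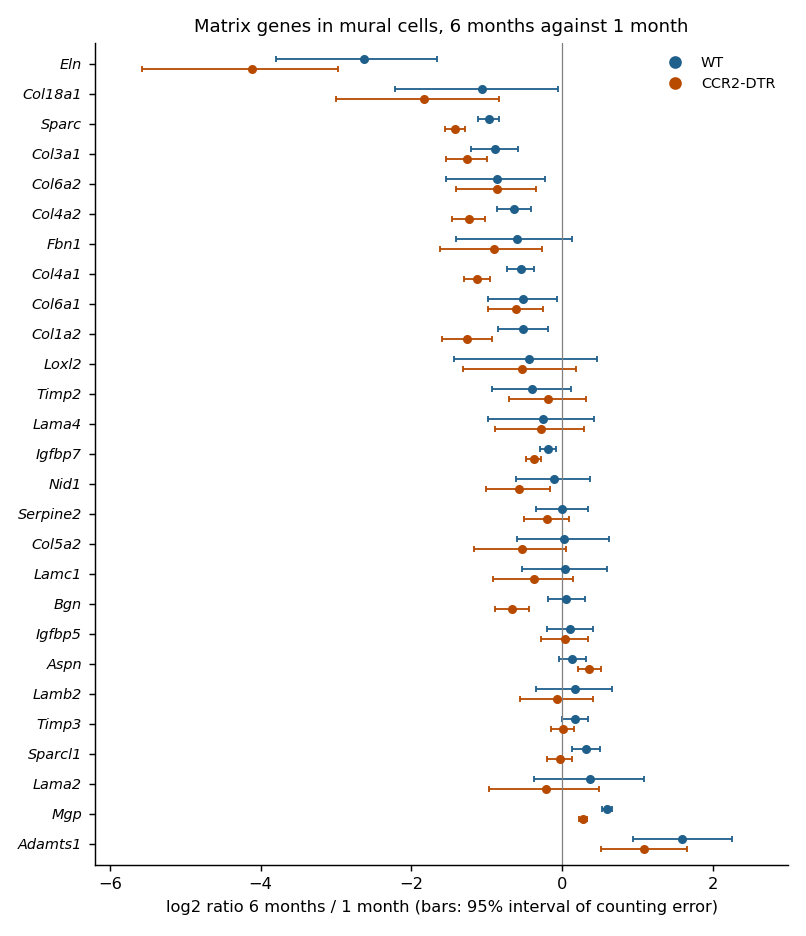
Log2 ratio of 6 months to 1 month for 27 matrix genes in mural cells of WT (blue) and CCR2-DTR (orange), with 95% intervals of counting error, ordered by the WT ratio. Sparc lies at -0.97 and -1.42 and Eln at -2.63 and -4.12, while Mgp and Adamts1 lie above 0 in both.

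Single receptors and growth factors were higher at 6 months. Ednrb, the endothelin B receptor, measured 211, 209, 602 and 570.1 CPM, with log2 ratios of 1.51 (1.19 to 1.84) and 1.45 (1.15 to 1.74), and both 6-month libraries lay far above both 1-month ones. In endothelial cells Ednrb was 454, 349, 542 and 518 CPM. The ratios were 1.76 and 1.28 in cells with all 3 contractile markers and 1.22 and 1.61 in the others. Ednra, the constricting endothelin A receptor, measured 218, 273, 298 and 304 CPM and was at most 0.945 CPM in endothelial cells. The angiotensin receptor Agtr1a measured 107, 141, 91.6 and 122 CPM. Of the vasoactive list, 14 of 18 genes were above the median gene in WT (relative median 0.28) and 11 of 18 in CCR2-DTR (0.11). Ccn2, a matricellular growth factor, measured 365, 390.2, 696 and 740.3 CPM, with 0.93 (0.66 to 1.20) and 0.92 (0.69 to 1.16). The growth factor list as a whole was split, with 6 of 11 above the median gene in WT (1 past 2-fold higher and 1 lower) and 6 of 12 in CCR2-DTR (2 and 2). Over all genes, 3.51% were past 2-fold higher and 2.94% lower in WT, and 3.48% and 1.87% in CCR2-DTR.

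Further genes higher at 6 months in both genotypes were Sncg, gamma-synuclein, at 86.0, 55.9, 278 and 346 CPM, and Cd36, a fatty acid carrier, at 25.2, 21.3, 105 and 68.7 CPM. Endothelial Cd36 went the other way, at 42.9, 37.2, 11.8 and 9.49 CPM, whereas endothelial Sncg was higher too, at 44.0, 37.2, 166 and 148 CPM. Plat, tissue plasminogen activator, measured 101, 109.7, 232 and 233 CPM, and the chemokine scavenger Ackr3 74.1, 49.8, 167 and 149 CPM. Fry measured 363, 276, 732 and 585 CPM, and Apold1, Zfhx4 and Cyp4b1 were also higher. Lower in both were Nrep, a regenerating-tissue protein, at 138, 174, 49.0 and 35.8 CPM, the protease inhibitor family member Pi15 at 176, 229, 94.8 and 68.7 CPM, and Ndn, an imprinted growth suppressor, at 109.7, 105, 35.97 and 59.7 CPM. Ppic, Maged2, H1f0 and Tril were the others beside Sparc, Col18a1 and Col6a2. Ppic also was lower in endothelial cells, at 243, 272, 132 and 141 CPM.

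In single genotypes, St8sia4, Gstp1 and Rasd1 were higher with age in WT beside Cd36, and Impa1, Egr1, Gng10, Zbtb16 and Mxi1 lower. In CCR2-DTR, Thbd, Carmil1 and Cog8 were higher beside Sncg and Cd36, and Lamb1 and Fdps lower beside Nrep and Ppic. Lamb1, a laminin chain, measured 38.6, 85.4, 32.7 and 17.9 CPM. The contractile list had 20 of 25 genes above the median gene with age in WT (relative median 0.22) and 6 of 26 in CCR2-DTR (-0.09).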

How the data were processed

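The authors deposited gene-by-barcode matrices of UMI counts, made with Cell Ranger 5.0.1 on mm10 per the submitters' processing notes, with tables of the 32285 genes and of the barcodes in the same order. Other deposited columns (names of genes and barcodes) hold no values. For cell calling and other settings, the sources used here give nothing. Members and gene lists were chosen with earlier results of these data known. Raw counts of the members were summed per library and scaled to CPM. Ratios carry exact conditional Poisson 95% intervals, shares exact Clopper-Pearson ones, ratios per endothelial cell exact odds ratio ones and ratios of contractile shares log (Katz) ones. Genes needed 50 CPM in 1 library and 20 UMIs over both. A list's relative median is its median log2 ratio after subtracting the median over every gene past this floor (-0.06 to 0.06), over 33 lists with 644 of 646 entries found. Counts of 0 were set to 3 counts in a ratio. Of 38 symbols that repeat, the first entry was used. The rule for named genes took, for each contrast, the 10 genes furthest in either direction by the smaller ratio of both pairs, the 5 furthest for each comparison, and 12 for the class contrast. These genes needed UMIs in 10% of members, with at most 20% of UMIs from 1 cell, and lists of other cell types were left out. Some genes that met the rule are not reported here. Doublets were kept; Scrublet scores over 0.25 marked 14 members, left out as an alternative. The ratio and its interval were checked on simulated counts. Software was Python 3.11.15, numpy 2.4.6, scipy 1.17.1, pandas 2.3.3, scanpy 1.11.5 and matplotlib 3.10.9. Per the labels' protocols, islets were hand picked after collagenase and a Ficoll gradient.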

Additional observations from a re-analysis of the deposited data

Results flagged for a closer look

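3 lists moved in opposite directions in the pairs of libraries of a contrast, and these differences were not tested. The proliferation list had a relative median of 0.58 between genotypes at 1 month and -1.23 at 6 months, and 0.76 with age in WT and -1.35 in CCR2-DTR. It rests on 5, 13, 3 and 3 dividing cells. The immediate early list had -0.35 with age in WT and 0.33 in CCR2-DTR. Growth and imprinted genes had -0.25 with age in WT and 0.44 in CCR2-DTR, where the value changed sign to -0.11 with 4 markers, -0.057 with 2, -0.31 with a mitochondrial limit of 10% and -0.32 without the CPM floor.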

How the results depend on the processing

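Under 16 settings (marker minimum, UMI, mitochondrial and hormone limits, doublets, cells of other types, dividing cells, thinning, cell weights, totals, TMM, floors), 63 of 68 values of shares, 30 of 32 of contractile shares, 68 of 81 gene counts, 854 of 912 list medians and 3874 of 3948 gene ratios stayed close to the value reported (within its interval, 1.5 times for gene counts and 0.25 log2 units for lists). The contractile list at 6 months lay between -0.37 and -0.23 and the matrix list with age in CCR2-DTR between -0.67 and -0.38. The cause of the following moves was not tested. With 2000 UMIs the genotype ratio of shares at 1 month was 1.82 and the WT age ratio 0.980. With a hormone limit of 10% the genotype ratio was 1.01 and that of contractile shares at 1 month 1.23, which was 0.769 with thinned cells. With low-hormone cells as denominator the age ratios were 0.336 in WT and 0.382 in CCR2-DTR. Without the CPM floor 458, 413, 517 and 533 genes were past 2-fold in the 4 comparisons, against 82, 248, 263 and 212. Genes past 2-fold at both ages between genotypes numbered 3, and 15 with 2 markers, 5 without cells of other types, 6 without dividing cells, 6 with equal cell weights, 5 with other totals, 5 with TMM and 20 without the floor. Genes past 2-fold with age in both genotypes numbered 21, and 32 without dividing cells and 36 without the floor. With equal cell weights the 1-month split was 46 higher and 25 lower. List medians that changed sign were glucocorticoid and clock genes between genotypes at 1 month (-0.13 without the floor), interferon genes at 6 months (-0.083 with a hormone limit of 10%), and proliferation without dividing cells (0.54 at 6 months, -0.39 with age in WT, 0.029 in CCR2-DTR). Growth factors with age in WT were -0.10 with 2 markers and -0.22 without the floor, and cell cycle inhibitors with age in CCR2-DTR 0.25 with 2 markers and 0.039 without dividing cells. Growth and imprinted genes with age in CCR2-DTR were -0.11 with 4 markers, -0.057 with 2, -0.31 with a mitochondrial limit of 10% and -0.32 without the floor. With that mitochondrial limit the age ratios in CCR2-DTR of Acta2 (0.12), Csrp1 (0.12), Flna (0.000119), Myh11 (0.048) and Sorbs2 (0.35) changed sign, and Cald1 at 1 month was -0.013 with equal cell weights. Leaving out cells with 3 genes of any other type was not run, since it leaves 15, 0, 0 and 0 cells. No paired analysis was possible because each group is 1 library.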

Other observations

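Lists that the text has not described gave these values. Lipid handling and stellate genes had 7 of 10 members above the median gene in CCR2-DTR at 6 months (relative median 0.61) and 6 of 9 at 1 month (0.29). Glucocorticoid and clock genes had 5 of 6 and 8 of 9 above the median gene in CCR2-DTR at 1 and 6 months (0.46 and 0.55), but the 1-month median was -0.13 without the CPM floor. Fkbp5, a glucocorticoid-induced chaperone, measured 23.7, 53.9, 32.7 and 59.7 CPM in mural and 112, 195, 145 and 251 CPM in endothelial cells. Its mural ratio at 6 months was 0.87 (-0.29 to 2.13), an interval that includes no difference. Respiratory chain partners had 1 of 6 above the median gene in CCR2-DTR at 1 month (-0.34), with Cox8a at 798, 590.4, 752 and 749 CPM.

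Glp1r, the incretin receptor, measured 47.5, 40.6, 121 and 32.8 CPM in mural cells and 186 to 223 CPM in the other kept cells. Red blood cell genes had 2045 UMIs in CCR2-DTR at 1 month, 2039 of them in 1 mural cell.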
